A study of Mus musculus with 3 samples.

Results

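Z-disc and myotendinous scaffold genes were examined in soleus muscle of mice that lack Mettl21c. The set holds 10 genes, namely Actn2, Actn3, Myoz1, Myoz2, Ldb3, Csrp3, Nrap, Ankrd2, Tcap and Myot, taken by name, with earlier results of these data known. Their probes were found by matching the RefSeq accession of each array probe, without its version, to the gene symbol, which gave 11 of the 55681 probes on the array. Each gene had 1 probe except Ldb3, which had 2. The muscle is named SOL in the labels and is read here as the soleus, a postural muscle of the hindlimb. It came from male C57BL/6 mice aged 8 weeks on a regular chow diet, either wild-type (WT) or with the genotype Mettl21cLacZ/LacZ (KO), in which both copies of Mettl21c carry a LacZ allele. The labels give no tissue restriction for that allele, and they do not say whether a sample was 1 mouse or a pool. Each genotype had 3 biological replicates, and each of the 3 arrays compared a WT sample, labelled with Cy3, with a KO sample, labelled with Cy5. No array had the dyes the other way round, so a preference of a probe for one dye and the genotype cannot be told apart.

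The Z-disc is the plate that borders each sarcomere, where actin filaments of opposite polarity are tied together by alpha-actinin and where titin is anchored. Small adaptor proteins sit on this lattice, tie it to titin, filamin and calcineurin, and take part in sensing load. At the end of the fibre the same kind of actin anchorage passes force through the membrane to the tendon, at the myotendinous junction. Some of these proteins come in versions that differ between fast and slow fibres, and the soleus is rich in slow fibres.

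The regions before the annotated start of 2 of the genes are shown, picked by their values below. Nrap had the most negative mean ratio of the set, and the dimmer of the 2 Ldb3 probes was positive on every array. The brighter Ldb3 probe, which stood for the gene, had mixed signs (0.62, -0.13 and 0.14), so Ldb3 is not the positive end of the set. Each region runs from 250 bases before the start to 50 after it, on the minus strand, and is taken from RefSeq (GRCm38.p6). Capitals mark matches on either strand to the E-box CANNTG, bound by MyoD and its relatives, to the MCAT motif CATTCC, to the TATA box TATAAA, to the MEF2 core TAAAAATA, or to the CArG box, bound by serum response factor.
Nrap, chr19:56389989-56390288: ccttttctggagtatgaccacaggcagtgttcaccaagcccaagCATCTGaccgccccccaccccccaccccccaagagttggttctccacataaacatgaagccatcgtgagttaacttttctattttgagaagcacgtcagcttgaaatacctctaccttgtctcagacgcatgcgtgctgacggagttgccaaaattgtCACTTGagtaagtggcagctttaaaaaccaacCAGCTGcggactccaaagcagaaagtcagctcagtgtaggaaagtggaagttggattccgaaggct
Ldb3, chr14:34588632-34588931: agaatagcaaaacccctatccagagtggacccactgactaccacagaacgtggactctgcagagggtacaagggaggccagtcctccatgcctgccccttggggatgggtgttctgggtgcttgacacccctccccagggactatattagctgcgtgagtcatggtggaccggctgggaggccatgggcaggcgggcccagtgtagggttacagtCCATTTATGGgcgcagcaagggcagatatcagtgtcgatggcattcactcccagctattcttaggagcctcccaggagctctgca
Of the 10 genes 6 had an entry in the RefSeq promoter table. The most upstream start listed for Ldb3 is shown. It had a second annotated start close by, whose window overlaps the one shown and holds the same CArG box. The capitals in Nrap are 3 E-boxes, at -206, -48 and -16 from the start. The E-box was present in 72.3% of the 32851 mouse promoters of this length. The capitals in Ldb3 are 1 CArG box at -35, a motif found in 1.63% of those promoters, and no E-box matched in that window. The other 3 motifs had no match in either window. They were present in 14.7% (MCAT), 13.6% (TATA) and 2.72% (MEF2 core) of all promoters. A match is a run of letters and not a measured binding site.

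The array carries 59305 spots that are not controls, of which 20.4% to 23.6% gave a WT signal well above background and 22.5% to 22.9% a KO signal, and 0 were saturated. The targeted transcript, Mettl21c, had processed signals of 7527, 3677 and 4486 in WT and of 200.4, 32.3 and 45.4 in KO on arrays 1 to 3. Processed signals are brightness values that the scanner software has background-subtracted and dye-normalised. Its mean log2 ratio was -2.45 (SD 0.48, n = 3, limma adjusted p = 0.0175), and its KO signal was well above background on 1 of the 3 arrays. Where KO is at background the size of the ratio depends on the processing, with -3.53 at an offset of 16 and -6.23 on the processed signals. The call was lost on the processed signals (limma adjusted p = 0.068), without the filter on dim probes (0.172), in the fit of 6 channels (0.752) and without array 3 (0.0557). When both channels had to be above background, Mettl21c was not tested, so its call rests on a filter that it passed through WT. Where its single probe lies relative to the deleted part is not known from the sources used here. Log2 ratios are KO over WT after an offset of 50 and loess, which shrinks the ratios of dim probes. To be tested, a gene needed a probe measured on each array, with one of its channels well above background every time. Over the 7424 genes or unnamed transcripts tested, 3 passed a limma adjusted p of 0.05, which is 0.0404%, all lower in KO. Of the scaffold genes 7 were tested and 0 of them passed, while 2 of the 7, Nrap and Actn3, had an unadjusted p under 0.05 and a negative mean. Over all tested genes 7.53% did so, and 5.9% had an unadjusted p under 0.05 and a positive mean.

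The spots of 3 scaffold genes failed on array 3, and all 3 lay in the same corner of it. For Ankrd2 the processed signals were 31562 in WT and 42327 in KO on array 1, and 92309 and 70609 on array 2. On array 3 they were 209.6 and 199.1, with neither channel well above background. Myoz1 stood at 5180 in WT and 4904 in KO on array 1, at 6175 and 6584 on array 2, and at 118.5 and 72.7 on array 3, again not well above background. The Myoz2 spot was bright on array 3, at 4905 in WT and 14964 in KO, but carried the software's flag for uneven pixels and was left out there. Of the spots that were well above background in both channels of the other arrays, 15.5% were blank in both channels of array 3. The share was 0.569% on array 1 and 0.289% on array 2. In the quadrant of rows 193 to 384 and columns 1 to 82 of array 3 the blank share was 33.9%, against 6.64% to 12.3% in the other quadrants. Within 6 rows and columns of the spots, 13 of 27 such neighbours of Ankrd2, 20 of 30 of Myoz1 and 16 of 26 of Myoz2 were blank on array 3. The array 3 values of Ankrd2 and Myoz1, which were blank, and of Myoz2, which was flagged, are not given as expression. These genes were measured on arrays 1 and 2 alone, so 7 of the 10 genes were tested over 3 arrays.

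**Figure D1:**
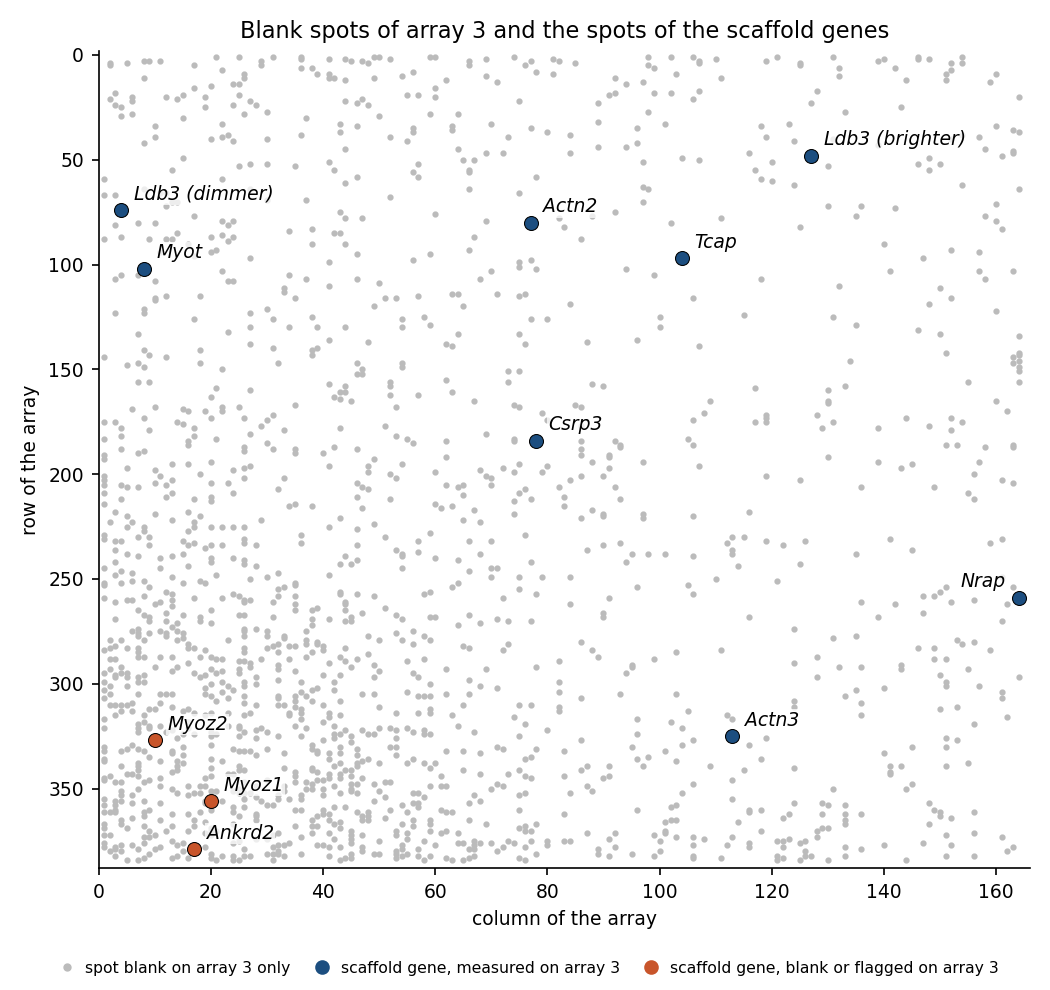
Map of array 3, with the column of the array on the horizontal and the row on the vertical axis. Grey points are the spots that were well above background in both channels of arrays 1 and 2 but in neither channel of array 3, and large points are the 11 probes of the scaffold genes, with Myoz2, Myoz1 and Ankrd2 (orange) in the corner where blank spots are dense.

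The alpha-actinins cross-link actin at the Z-disc. ACTN2 is present in all skeletal muscle fibres and ACTN3 in fast fibres. The processed signals of Actn3 were 4516, 4388 and 9159 in WT and 1153, 5643 and 3147 in KO on arrays 1 to 3. KO was low on arrays 1 and 3 and above WT on array 2, so the groups overlapped. The log2 ratios were -1.39, 0.23 and -1.24, with a mean of -0.80 (SD 0.89, n = 3, 95% interval -1.49 to -0.11, limma adjusted p = 0.306). Without array 2 the mean was -1.32 and Actn3 passed (limma adjusted p = 0.00099), while it was -0.51 without array 1 and -0.58 without array 3. Array 2 is the array of opposite sign, so a small p without it follows from leaving it out and is not read as a result. The processed signals of all 3 arrays gave a mean of -1.05 (limma adjusted p = 0.492).

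Actn2 had processed signals of 5402, 6052 and 10085 in WT and of 6439, 4266 and 6649 in KO. KO was above WT on array 1 and below it on arrays 2 and 3. The ratios were 0.17, -0.48 and -0.64, with a mean of -0.32 (SD 0.43, n = 3, 95% interval -0.68 to 0.04, limma adjusted p = 0.424). Without array 1 the Actn2 mean was -0.56, and without array 3 it was -0.15. The isoforms did not keep one order between the arrays. The difference between the ratios of Actn3 and Actn2 was -1.56, 0.70 and -0.60, with a mean of -0.49 (SD 1.14, n = 3, exact two-sided sign-flip permutation p = 0.75, where 0.25 is the smallest possible). Without array 1 that difference turned to 0.051.

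MYOZ1 and MYOZ2 are calsarcins, which bind alpha-actinin and hold calcineurin at the Z-disc. Myoz1 is the version of fast fibres and Myoz2 that of slow fibres and heart. Each was measured on arrays 1 and 2 alone, so no test over 3 arrays was made. The Myoz1 ratios were -0.01 and 0.15 (mean 0.067, SD 0.11, n = 2). The processed signals of Myoz2 were 4020 and 5055 in WT and 4092 and 4525 in KO, with ratios of 0.04 and -0.18 (mean -0.068, SD 0.16, n = 2). These were the smallest mean ratios of the set. The difference Myoz1 minus Myoz2 was -0.053 and 0.32, with a mean of 0.14 (SD 0.27, n = 2, exact two-sided sign-flip permutation p = 1, where 0.5 is the smallest possible). With spots that carry an outlier flag kept, Myoz2 had a value on array 3 and a mean of -0.094 over 3 arrays.

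**Figure D2:**
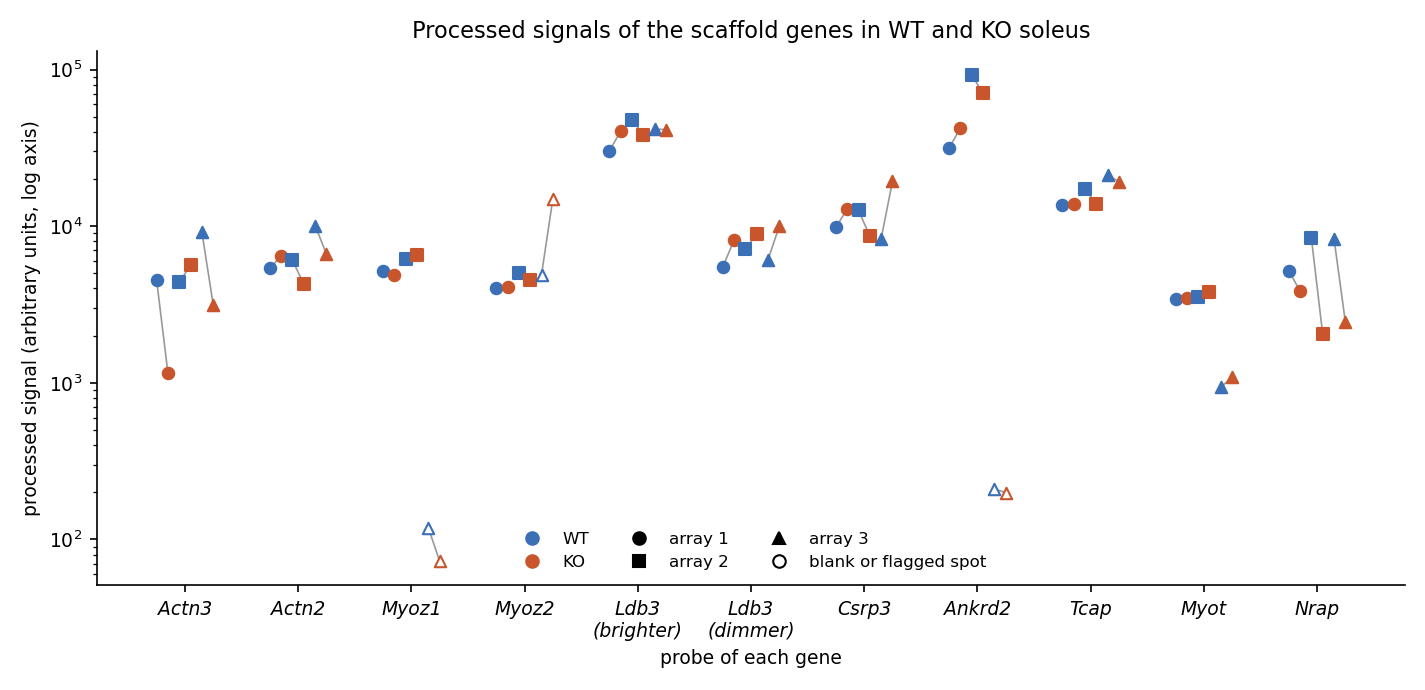
Processed signals on a log axis, in arbitrary units, for each probe of the scaffold genes. Each pair of points joined by a line is the WT (blue) and the KO (orange) sample of 1 array, and open symbols are spots that were blank or flagged on array 3. The 3 Nrap values of KO lie below those of WT, the 3 KO values of the dimmer Ldb3 probe lie above those of WT, and the other tested genes overlap. Heights of different probes cannot be compared.

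LDB3, also called Cypher or ZASP, is a PDZ and LIM domain protein that binds alpha-actinin and stabilises the Z-disc. Its 2 probes carry different transcript accessions, NM_001039076 for the brighter and NM_011918 for the dimmer. The brighter probe, which stood for the gene, had processed signals of 30295, 47853 and 41740 in WT and of 40568, 38247 and 41366 in KO. KO was above WT on array 1, below it on array 2 and close to it on array 3. The ratios were 0.62, -0.13 and 0.14, with a mean of 0.21 (SD 0.38, n = 3, 95% interval -0.11 to 0.54, limma adjusted p = 0.565). Without array 1 the mean was 0.0070, and without array 2 it was 0.38. The processed signals gave 0.028 and the signals without background subtraction 0.038, so the size of this value depended on the processing.

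The dimmer Ldb3 probe behaved more evenly, with 5478, 7114 and 6087 in WT and 8107, 8876 and 9984 in KO. Every KO value was above every WT value, as for 2.68% of all tested genes. The ratios were 0.59, 0.44 and 0.67, with a mean of 0.57 (SD 0.12, n = 3), or 1.48-fold, and the processed signals gave 0.53 (SD 0.20). When each of the 8391 probes was tested on its own, an alternative added after seeing the data, this probe had an interval of 0.39 to 0.74 and an unadjusted p of 1.79e-04 (limma adjusted p = 0.0824). In that fit 5.6% of probes had an unadjusted p under 0.05 and a positive mean, and 0.0119% passed the adjusted threshold. Its 10 tested neighbours within 6 rows and columns had median ratios of 0.030, 0.020 and -0.15. The probes of Ldb3 therefore differed most on array 2, where one stood at -0.13 and the other at 0.44. When the probes were averaged, the mean for the gene was 0.39.

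CSRP3, the muscle LIM protein, and TCAP, or telethonin, belong to the anchorage of titin at the Z-disc, and ANKRD2 is an ankyrin repeat protein of the sarcomere that responds to stretch and is abundant in slow fibres. Csrp3 had processed signals of 9852, 12614 and 8312 in WT and of 12828, 8662 and 19390 in KO. Its KO values were highest on array 3 and lowest on array 2, and the groups overlapped. The ratios were 0.36, -0.58 and 1.22, with a mean of 0.33 (SD 0.90, n = 3, 95% interval -0.36 to 1.03, limma adjusted p = 0.681). The sign rested on array 3, since without it the mean was -0.11, and without array 2 it was 0.79.

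For Ankrd2 the 2 arrays with signal gave 0.77 and 0.35 (mean 0.56, SD 0.30, n = 2) after the offset and loess. The processed signals, which the scanner software normalised, gave 0.42 and -0.39 (mean 0.018). The direction on array 2 thus turned with the normalisation. This probe's WT signal on array 2 was 92309 against 31562 on array 1, a gap larger than that between the genotypes on either array.

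Tcap was more even. It had 13651, 17322 and 21170 in WT and 13885, 13896 and 19246 in KO, with overlapping groups. Its ratios were 0.0090, -0.33 and -0.14, with a mean of -0.16 (SD 0.17, n = 3, 95% interval -0.36 to 0.05, limma adjusted p = 0.491), or -0.067 without array 2. MYOT, myotilin, cross-links actin and binds alpha-actinin and filamin. Its signals were 3440, 3512 and 935.4 in WT and 3495, 3821 and 1086 in KO, so both genotypes were dim on array 3. The Myot ratios were 0.10, 0.20 and 0.14, with a mean of 0.14 (SD 0.050, n = 3, 95% interval -0.02 to 0.30, limma adjusted p = 0.42). Its sign was positive on all 3 arrays, as for 17.5% of all tested genes. Its neighbours on the array had median ratios of 0.11, 0.12 and -0.044. The intervals of Tcap and Myot were the narrowest of the 7 and reached at most 0.36 in size.

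**Figure D3:**
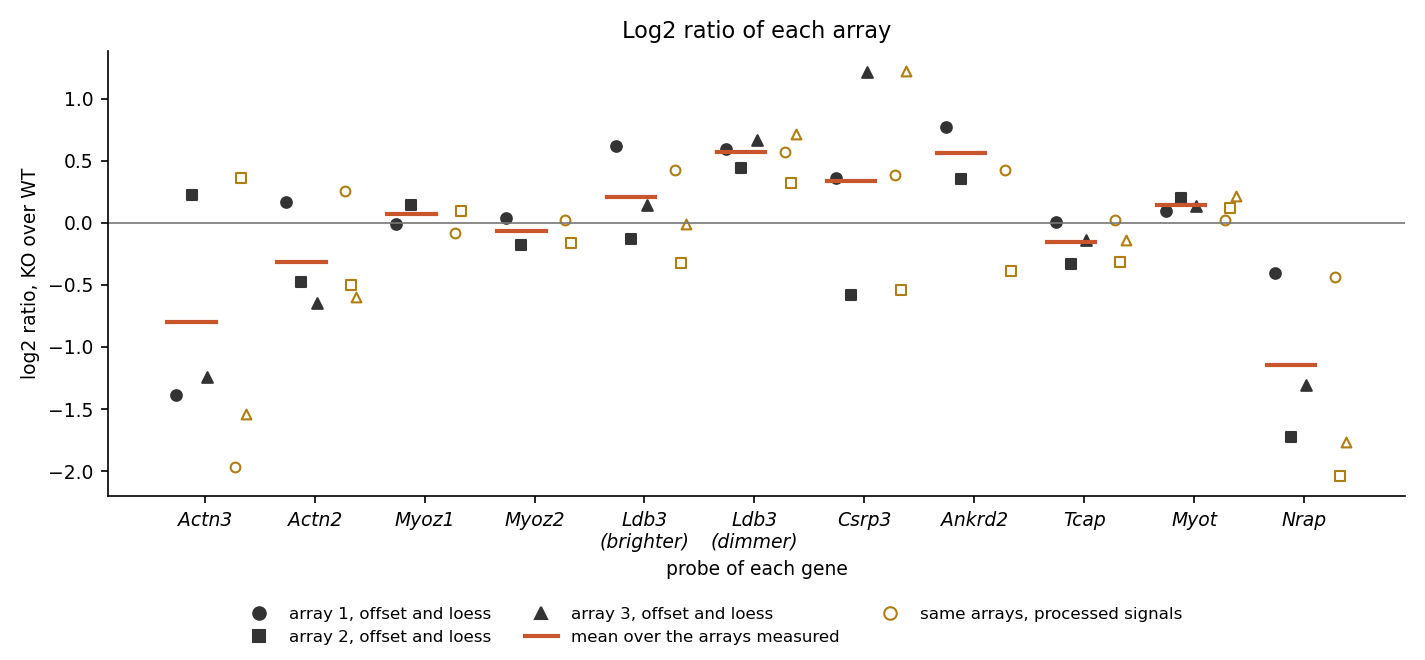
Log2 ratio of KO over WT for each probe of the scaffold genes. Black symbols are the values of arrays 1 to 3 after the offset of 50 and loess, orange bars their mean over the arrays measured, and open symbols the ratios of the processed signals on the same arrays. Nrap is the gene with every symbol well below 0, the dimmer Ldb3 probe and Myot have every symbol above 0, and Csrp3 and Actn3 span the widest range.

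NRAP is a large repeat protein of the myotendinous junction that binds alpha-actinin, actin and the muscle LIM protein and takes part in the assembly of myofibrils. Its processed signals were 5205, 8419 and 8337 in WT and 3853, 2051 and 2454 in KO. Every KO value was below every WT value, with a mean of 7320 (SD 1830, n = 3) in WT and 2786 (SD 945, n = 3) in KO. Such a separation with KO below WT was found for 3.79% of all tested genes. The log2 ratios were -0.40, -1.73 and -1.31, all negative, as for 18.3% of tested genes. Their mean was -1.14 (SD 0.68, n = 3, 95% interval -1.68 to -0.61, limma unadjusted p = 0.00158 and adjusted p = 0.111), or 2.21-fold lower in KO. The ratio on array 1 was the smallest. Without array 1 the mean was -1.52 and Nrap passed (limma adjusted p = 0.0327), and without array 2 it was -0.85. Array 1 is the array of weakest ratio, so a smaller p without it follows from leaving it out and is not read as a result. An offset of 16 gave -1.25 and also passed (limma adjusted p = 0.0333), while the processed signals gave -1.41 (SD 0.86, limma adjusted p = 0.404).

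The Nrap spot lies in column 164, the last of the array, at row 259. Its 12 tested neighbours within 6 rows and columns had median ratios of 0.064, -0.059 and 0.20 on arrays 1 to 3. Of its 14 neighbours well above background on arrays 1 and 2, 2 were blank on array 3. An effect of the edge on the spot itself was not tested. Among the 832 tested genes within 0.5 of its average log2 intensity, 0% had a more negative mean. The 3 genes with the most similar ratios over the 3 arrays, by Euclidean distance, were Atp2a2, the calcium pump of slow fibres (distance 0.73), Chac1, a glutathione-degrading enzyme (0.85), and Actg1, a cytoplasmic actin (0.91). Their means were -1.14 for Atp2a2, -0.96 for Chac1 and -0.72 for Actg1, which passed without array 1 (limma adjusted p = 0.0454). Array 1 was also the weakest for Actg1 (-0.33), so that p is not read as a result either. A second, dimmer probe of Atp2a2 stood at 0.086. With the blank corner of array 3 left out, another probe of Actg1, measured on 2 arrays, stood for the gene at -0.14 (limma adjusted p = 0.561). Chac1 passed in the reported setting (limma adjusted p = 0.0481), kept the call in 10 of 20 alternatives and lost it in the other 10. It was lost without array 3 (-0.87, limma adjusted p = 0.0557) and on the processed signals (-1.045, limma adjusted p = 0.404). It was also lost with scaling between arrays (0.0823), with outlier-flagged spots kept (0.0695) and without the filter on dim probes (0.172). In bulk muscle, fewer cells of a type and less RNA per cell cannot be told apart.

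Taken one array at a time, the scaffold genes did not shift as a block. Their median ratio was 0.070 on array 1, with 3 of the 10 genes negative, -0.15 on array 2, with 6 of 10 negative, and -0.14 on array 3, with 4 of the 7 measured genes negative. The medians of all tested genes were -0.012, -0.017 and 0.023. Of the 7 genes tested over 3 arrays, 4 had a negative mean and 3 a positive one, with a median of -0.16 beside -0.0030 over all tested genes, of which 50.9% were negative. When the median spot signals were only centred, without loess, all 7 were negative, in settings that moved the median of all genes to -0.45 or left it at -0.01.

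What most of these genes had in common was a wide spread between arrays. The SD of the log2 ratio over 3 arrays was 0.90 for Csrp3, 0.89 for Actn3, 0.68 for Nrap, 0.43 for Actn2 and 0.38 for Ldb3, while the median over all tested genes was 0.12. Each of these 5 values lay above at least 97.1% of the tested genes. Bright probes vary more on this scale, so each was also set against the tested genes within 0.5 of its own average log2 intensity. It then lay above 99.8% of 436 genes for Csrp3, 99.4% of 960 for Actn3, 98.8% of 832 for Nrap, 96.4% of 732 for Actn2 and 94.8% of 135 for Ldb3. Tcap lay above 46.7% of 349 genes and Myot above 7.8% of 1384, so the spread was not shared by the whole set. Nor was it particular to the set. Among the genes named below from the wider Z-disc and fibre lists, the SD was 0.45 for Atp2a1, 0.41 for Atp2a2 and 0.39 for Hspb7. These lay above Ldb3, while the other genes named from those lists lay below it, from 0.084 for Trim63 to 0.32 for Trim54. Within a genotype, the SD of the log2 processed signal of Actn3 was 1.16 in KO and 0.60 in WT, and that of Csrp3 was 0.58 in KO and 0.30 in WT. For the brighter Ldb3 probe it was larger in WT, with 0.34 in WT and 0.059 in KO. For Actn2 it was 0.48 in WT and 0.36 in KO, for Nrap 0.40 and 0.47, and for Tcap 0.32 and 0.27. Myot, whose ratio was even, had 1.09 in WT and 1.01 in KO, and both were dim on array 3. Each of these SDs is over 3 samples, and the genotypes kept no common order.

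**Figure D4:**
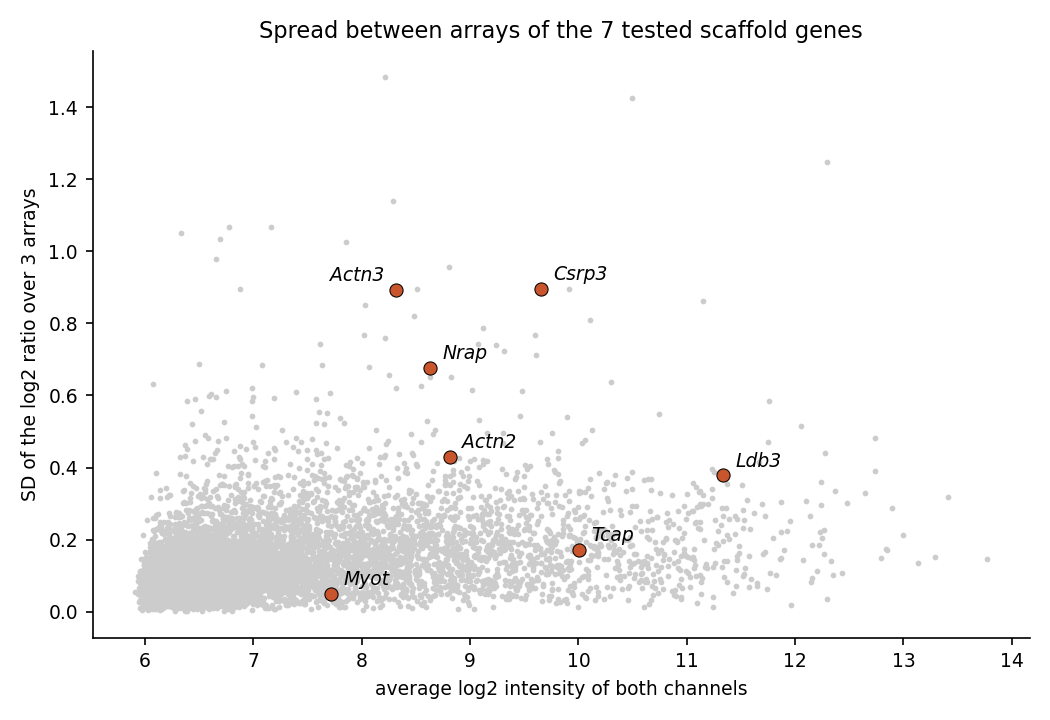
SD of the log2 ratio over the 3 arrays (vertical) against the average log2 intensity of both channels (horizontal), for all 7424 tested genes or transcripts (grey) and the 7 tested scaffold genes (orange). Csrp3, Actn3 and Nrap lie far above the cloud at their intensity, Actn2 and Ldb3 near its upper edge, and Tcap and Myot inside it.

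A wider list of 52 other Z-disc and sarcomere scaffold genes, written with earlier results of these data known, gave a view of the same structure. Of the 36 tested, 0 passed over all genes. Their means were positive for 16 and negative for 20, with a median of -0.021. At an unadjusted p under 0.05 there were 8 negative (22.2%, against 7.53% of all tested genes) and 4 positive (11.1%, against 5.9%). The 5 of smallest p were Trim54, Synpo2l, Hspb7, Trim63 and Des. Trim54, a sarcomeric ubiquitin ligase, stood at -0.65 (SD 0.32, limma adjusted p = 0.0975), with WT signals of 5699, 5502 and 9070 above KO signals of 4471, 3773 and 4422. Synpo2l, an actin-binding protein of the Z-disc, was at 0.33 (SD 0.086, limma adjusted p = 0.129). Hspb7, a small heat shock protein of striated muscle that binds filamin C, was at -0.58 (SD 0.39, limma adjusted p = 0.159), or -0.35 without array 2. Trim63, the ubiquitin ligase MuRF1, was at -0.28 (SD 0.084, limma adjusted p = 0.175). Des, desmin, whose filaments tie neighbouring Z-discs together, was at -0.33 (SD 0.21, limma adjusted p = 0.212). Actn1, Ankrd1, Lmod2, Mypn, Sorbs2, Tmod1 and Unc45b were not well above background on any array.

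Of 30 genes of the myotendinous junction and of cell adhesion, 21 were tested, 10 with a positive and 11 with a negative mean, and 0 passed. Their median was -0.0040. At an unadjusted p under 0.05 there were 2 negative (9.52%, against 7.53% of all tested genes) and 0 positive (against 5.9%). These were Lama2, the laminin chain of the muscle basement membrane, at -0.23 (SD 0.085, limma adjusted p = 0.249), and Itgb1bp2, melusin, which binds integrin beta 1, at -0.29 (SD 0.24, limma adjusted p = 0.292), or -0.15 without array 2. The next 3 were Lamc1 at 0.17, Tnmd at -0.19 and Lamb1 at 0.14. Without array 1 these were 0.073, -0.084 and 0.081. With another array left out, the values over 1.5 times away were 0.27 for Lamc1 and -0.33 for Tnmd without array 3 and 0.23 for Lamb1 without array 2. The processed signals gave -0.019 for Lamc1, -0.297 for Tnmd and 0.329 for Lamb1. Centring without loess, on all and on tested probes, gave -0.517 and -0.078 for Tnmd and -0.384 and 0.055 for Lamb1. The value of Nrap was thus not accompanied by a like value in most genes of this list. Dmd, Col12a1, Fblim1 and Parva were not well above background on any array.

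Fibre type and cell type genes were read in the same fit, since Actn3 and Myoz1 mark fast fibres and Ankrd2 and Myoz2 slow ones. Of 12 slow fibre genes 9 were tested, 7 with a positive mean, with medians of 0.18, -0.0060 and 0.30 on arrays 1 to 3. At an unadjusted p under 0.05 there were 4 positive (44.4%, against 5.9% of all tested genes) and 1 negative (11.1%, against 7.53%). The slow genes of smallest p were Atp2a2, given above, and Myl3, a slow myosin light chain, at 0.49 (SD 0.17, limma adjusted p = 0.0895). The size of the Myl3 value depended on the processing. On the processed signals its mean was 0.060, and the WT and KO values overlapped. It was 0.25 when the offset was lowered to 16, and 0.16 where the background was left in. Its highest value was 0.57, without array 3. Of 13 fast fibre genes 10 were tested, 6 with a negative mean, with medians of -0.15, 0.017 and -0.039. At an unadjusted p under 0.05, 2 were positive and 2 negative, 20% each, against 5.9% and 7.53% of all tested genes. The order of the fast medians over the arrays, lowest on array 1 and highest on array 2, was that of the Actn3 ratios, and its part in them was not tested. The fast genes of smallest p were Mylpf, the fast regulatory light chain, at -0.47 (SD 0.27, limma adjusted p = 0.151), and Atp2a1, the calcium pump of fast fibres, at -0.65 (SD 0.45, limma adjusted p = 0.159), or -0.39 without array 3. No fast or slow fibre gene passed in the reported setting. Atp2a2 passed with an offset of 16 (limma adjusted p = 0.00498), without background subtraction (0.029), with robust trended moderation (0.00383) and with array weights (0.0332). It also passed without array 1 (0.0369), its weakest, and without array 2 (0.0302). It did not on the processed signals (0.404), without the filter on dim probes (0.263) or without array 3 (0.0557). Myl3 passed with array weights (0.0449). With either centring without loess Atp2a2, Myl3, Mylpf and Atp2a1 passed, all with negative means.

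Tendon markers bear on Nrap, which lies at the tendon end of the fibre. All 10 were on the array and above background somewhere, 9 were tested and 6 had a negative mean, with medians of -0.40, -0.26 and 0.10 on arrays 1 to 3. At an unadjusted p under 0.05, 2 were negative (22.2%, against 7.53% of all tested genes) and 0 positive (against 5.9%). The summed processed signal of the tendon markers ranged from 11190 to 38040 in WT and from 14630 to 28360 in KO, which overlap. The part of these markers in the Nrap value was not tested. The Nrap ratios on arrays 1 to 3 were -0.40, -1.73 and -1.31. Of 7 heart markers 4, namely Myl7, Nppb, Tnni3 and Tnnt2, were not well above background on any array. Among the other marker lists the medians were -0.24 for 6 macrophage, -0.13 for 5 endothelial, -0.080 for 7 smooth muscle, 0.013 for 3 fibroblast, 0.13 for 5 adipocyte and 0.21 for 3 red blood cell genes, and 0 of these genes passed. At an unadjusted p under 0.05, 7.53% of all tested genes were negative and 5.9% positive. At that p 2 of the 6 macrophage genes (33.3%) were negative, and all 6 had a negative mean, as had 50.9% of all tested genes. Of the 3 red blood cell genes 2 were positive (66.7%), 1 of 5 endothelial genes was positive (20%) and 1 of 7 smooth muscle genes negative (14.3%). That smooth muscle gene was Des, which was already counted in the wider Z-disc list above, so it is not a separate smooth muscle value. The part of these marker genes in the values of the scaffold genes was not tested.

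**Figure D5:**
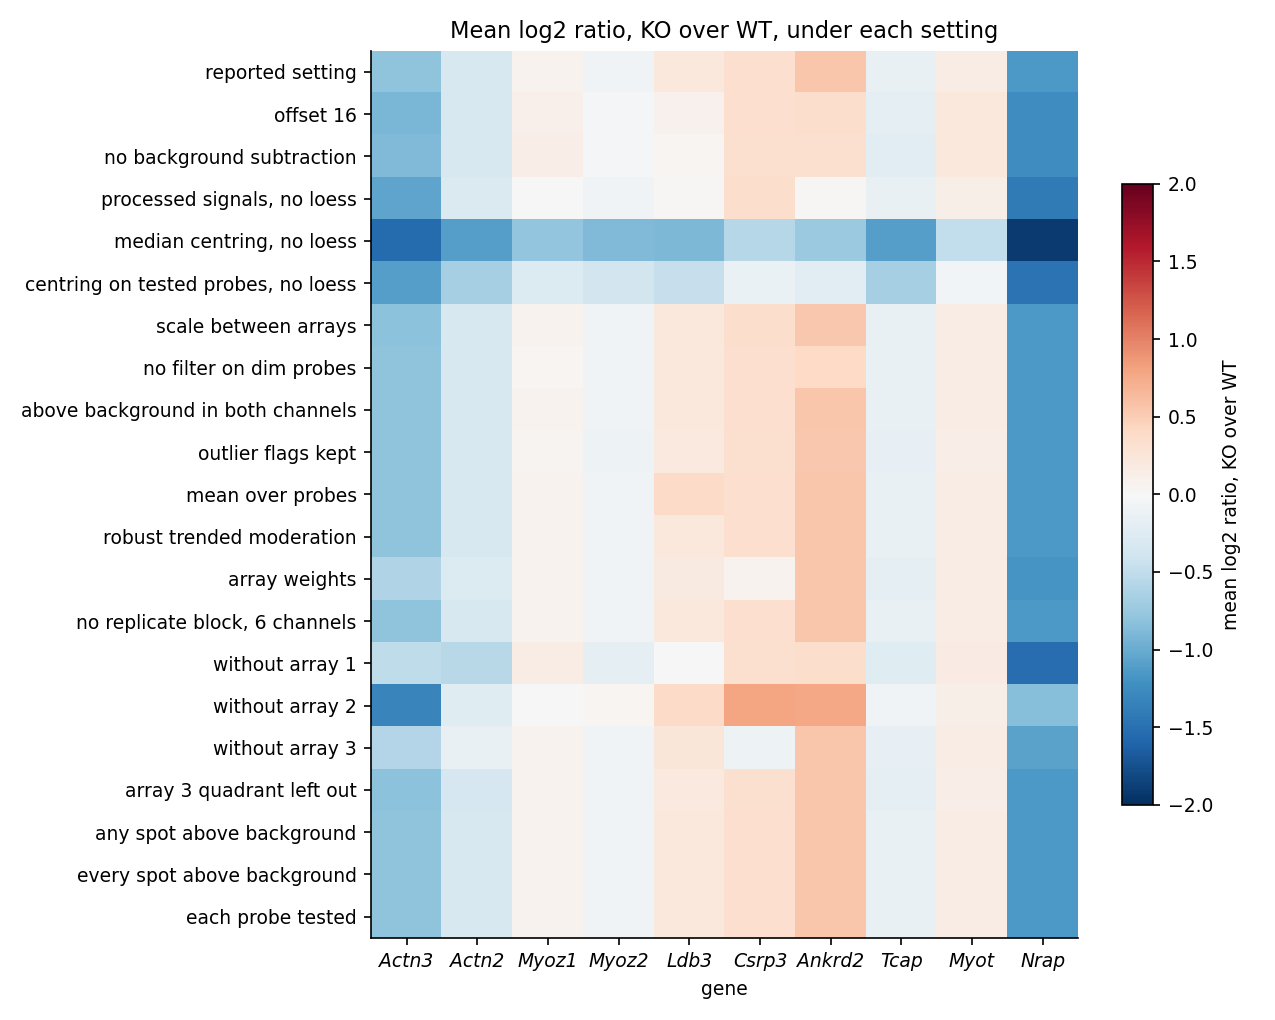
Mean log2 ratio of KO over WT of each scaffold gene (columns) under the reported setting and each alternative (rows), as a colour scale from -2 (blue) to 2 (red). For Ankrd2, Myoz1 and Myoz2 the mean is over the arrays measured. Nrap, Actn3, Actn2 and Tcap stay below 0 in every row, while Ldb3, Csrp3, Myot, Ankrd2 and Myoz1 turn below 0 where the arrays were centred without loess. Csrp3 also turns without array 3, and Myoz1 (-0.01) and Myoz2 (0.04) without array 2, where each rests on 1 array.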

How the data were processed

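RNA of 3 WT and 3 KO samples, labelled as biological replicates, was hybridised to 3 arrays with 2 colours, WT in Cy3 and KO in Cy5, per the labels. The deposited scanner files hold median spot and local background intensity, a processed intensity that was background-subtracted and dye-normalised by Agilent Feature Extraction, and a log10 ratio of red over green, per the file headers. The submitters' processing notes name version 11.5 of that software and the file headers 12.0.3.1. The authors' series table holds the same log10 ratio, within 5e-10 on arrays 1 and 2 and within 0.00499 on array 3. No genome build is given in the sources used here.

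Median intensities were corrected with normexp (offset 50) and loess within each array in limma 3.58.1 (R 4.3.3), with control spots and outlier-flagged spots at weight 0. Spots of a probe were averaged. Where a probe had several spots, at least a share of 0.5 of those without a flag had to be well above background. The brightest tested probe stood for a gene. Of 29472 probes with a RefSeq accession, 28664 matched a gene. The log2 ratios of the 3 arrays were tested against 0 with lmFit and eBayes and adjusted by Benjamini-Hochberg over 7424 genes or unnamed transcripts. The scripts were checked on simulated data. The number of arrays limits the precision.

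Each array pairs 1 KO with 1 WT sample, and the deviations of its channels from their group means correlated at 0.861, 0.866 and 0.916. The scaffold genes and all lists were chosen with earlier results of these data known. The genes named are all 10 scaffold genes, Mettl21c, the 5 genes of smallest p in the wider Z-disc list and in the myotendinous list, the 2 of smallest p in each fibre list, and the 3 most like Nrap.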

Additional observations from a re-analysis of the deposited data

How the results depend on the processing

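The number of genes past the threshold over the whole array depended strongly on the processing, and the scaffold genes were called in few settings. Against 3 in the reported setting, it was 25 with an offset of 16 (3 of them higher in KO), 5 without background subtraction, 1 with scaling between arrays, 1 with outlier-flagged spots kept, 1 with probes averaged, 85 with robust trended moderation (41 higher) and 62 with array weights (45 higher). It was 0 with limma on the processed signals (805 at an unadjusted p under 0.05), 0 of 36218 without the filter on dim probes (2468) and 0 of 6564 when both channels had to be above background (935). At an adjusted p under 0.1 there were 98. Among alternatives added after seeing the data, it was 1 where any spot of a probe sufficed, 7 where every spot had to pass, 1 with each probe tested, and 4 with the corner of array 3 left out. With the arrays centred on the median of all probes and no loess it was 4917, with the median of all genes at -0.451, and 2661 (1012 higher) with centring on the tested probes. In a fit of the 6 channels without the array as replicate block it was 0 (236 at an unadjusted p under 0.05). No call was thus kept without the pairing. That fit also equalised the average intensities of the arrays, and other settings that kept the pairing gave 0 as well. Leaving out 1 array gave 0 to 16, with 9 without array 1, 16 without array 2 and 0 without array 3 (1320 at an unadjusted p under 0.05). Scaffold genes called went from 0 to 1 (Nrap) with an offset of 16, to 6 and 4 with the centrings on all and on tested probes, and to 0 to 1 with an array left out (Nrap without array 1, Actn3 without array 2). Those with a negative mean went from 4 of 7 to 7 of 7 with either centring. With an array left out there were 4 to 6, namely 4 of 7 without array 1 or 2, and 6 of 10 without array 3, where Ankrd2, Myoz1 and Myoz2 entered the test. Leaving out an array gave -1.081 to 0.051 for Actn3 minus Actn2 and -0.053 to 0.324 for Myoz1 minus Myoz2. Centring on all probes turned Ldb3 to -0.897, Csrp3 to -0.567, Myot to -0.491, Synpo2l to -0.512, Lamc1 to -0.748, Lamb1 to -0.384, Myl3 to -0.79, Ankrd2 to -0.74 and Myoz1 to -0.794. Centring on tested probes turned Ldb3 to -0.458, Csrp3 to -0.128, Myot to -0.052, Synpo2l to -0.073, Lamc1 to -0.309, Myl3 to -0.351, Ankrd2 to -0.219 and Myoz1 to -0.273. The processed signals turned Lamc1 to -0.019, and Csrp3 ran from -0.107 (without array 3) to 0.789 (without array 2). The cause was not tested. For blank and dim spots, signal over background sets what can be measured.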
